A study of Sus scrofa with 12 samples.

Results

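The collagen genes of the pig were followed in the longissimus dorsi (LD), the loin muscle. They are the genes whose symbol has the form COL, a number, A and a number, and 44 of the 30334 genes in the RefSeq annotation of Sscrofa11.1 belong to them. The annotation gives 43 of them by symbol, and the other is LOC100623720, which it describes as the alpha-1 chain of type VI collagen and which is called COL6A1 here. A total of 38 collagen genes were listed in at least 1 library and 21 in all 12. The remaining 6 (COL4A4, COL9A1, COL9A3, COL10A1, COL25A1 and COL26A1) were listed in none. A mean of 0.5 FPKM (fragments scaled by transcript length and by the mapped fragments of the library) in at least 1 group was reached by 27, and 11 were listed below that level.

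RNA came from 12 purebred Iberian castrated males of a closed commercial line, fattened outdoors on acorns and grass and sampled at slaughter, with siblings left out. The 6 pigs with the highest estimated breeding value (EBV) for intramuscular fat (IMF) form the H group and the 6 with the lowest the L group, so the groups differ by selection and no treatment was given. The labelled IMF was 11.9% ± 1.25 (SD, n = 6) in H and 1.98% ± 0.262 (SD, n = 6) in L, and the labelled EBV was 3.05 ± 0.315 and -1.37 ± 0.0504 (SD, n = 6 each). The labelled IMF of the L pigs lies below the group mean stated in the study, a difference that the sources used here do not settle, and no result below uses the IMF values. The comparison of H with L asks which genes accompany the genetic merit for IMF. Since the groups also differ in IMF itself, genetic merit and the fat content of the sample cannot be told apart. Fattening and slaughter took place in batches and 4 libraries shared each sequencing lane. Which pig belonged to which batch or lane was not given in the sources used here, so batch and group cannot be told apart. The labels give no age.

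The libraries held 30535 to 44609 assembled transcripts and 9.88 to 17.6 gigabases of coverage, of which 41.8 to 56.5% was assigned to annotated genes. The tissue label was checked with 9 skeletal muscle genes, which summed to 29144 to 43623 FPKM in every pig. A value of 0 can be a transcript that was not assembled, since CKM, the muscle creatine kinase, was listed at 0 in H4 and L2. Tendon genes, though not all 8 markers, set H3 and L5 apart. The summed level of 8 tendon markers was 173 FPKM in H3 and 244 in L5, against 29.9 to 102 FPKM in the other 10 pigs. TNMD, a membrane protein of tendon cells, was at 4.12 FPKM in H3 and 12.5 in L5 and at most 0.402 elsewhere. COMP, a cartilage and tendon matrix protein, was at 20.2 and 27.3 FPKM in the same pigs and at most 0.418 elsewhere. Its values, and those of SCX and MKX, the transcription factors of tendon, were at or near 0 in the other 10 libraries. Other markers went differently. TNC was highest in L1 (22.2 FPKM) and L3 (19.7 FPKM), against 14.3 FPKM in H3 and 5.46 FPKM in L5. CILP was highest in H4 (49.3 FPKM), against 32.8 FPKM in H3 and 33.0 FPKM in L5. In whole muscle, a different number of cells of a type and a different amount of RNA per cell cannot be told apart.

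Collagens are made of 3 chains wound into a triple helix, and each chain repeats a glycine followed by 2 other residues, because no larger residue fits in the centre of the helix. Fibrillar collagens (types I, II, III, V, XI, XXIV and XXVII) form the rope-like fibrils of tendon and of the sheaths around muscle. Type IV forms the network of basement membranes around each muscle fibre and capillary. Type VI forms beaded filaments between the basement membrane and the fibrils, and its loss in humans causes muscular dystrophies. FACIT collagens sit on the surface of fibrils, multiplexins lie in basement membrane zones, and transmembrane collagens are anchored in the cell membrane. In meat, the sheaths built by these proteins bear on toughness and house the fat cells that make up IMF.

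The glycine rhythm can be read in the reference sequence. One internal coding exon of 54 bases is shown for each of 5 genes that the results turn on, to show what the 3 classes compared here have in common. In capitals are the codons for glycine, 6 in each exon, each followed by 2 other codons. The sequences are from RefSeq Sscrofa11.1 and are written on the strand of the gene.
COL1A1 (chr12:26393098-26393151, minus strand): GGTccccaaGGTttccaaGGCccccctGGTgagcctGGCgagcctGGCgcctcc
COL1A2 (chr9:74184187-74184240, plus strand): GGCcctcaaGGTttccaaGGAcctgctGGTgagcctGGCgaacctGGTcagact
COL3A1 (chr15:93571887-93571940, plus strand): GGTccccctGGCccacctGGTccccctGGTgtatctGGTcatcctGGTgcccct
COL4A1 (chr11:76915618-76915671, minus strand): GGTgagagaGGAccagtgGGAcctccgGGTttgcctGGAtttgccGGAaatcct
COL6A1 (chr13:208299798-208299851, plus strand): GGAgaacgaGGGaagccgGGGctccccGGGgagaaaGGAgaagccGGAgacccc

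The classes differed in how long this rhythm lasts. The longest unbroken run of this pattern, a glycine codon followed by 2 other codons, was 174 to 343 glycine codons in the 11 fibrillar genes (median 337), 39 to 66 in the 6 type IV genes and 37 to 87 in the 5 type VI genes. Exons of exactly 54 bases made up 47.6% of the internal coding exons of the fibrillar genes (303 of 636), 3.90% of those of type IV (11 of 282) and 7.91% of those of type VI (14 of 177). Fibrillar genes thus repeat the exon unit shown above, whereas type IV and type VI genes hold a few copies of it. These values describe 1 annotated coding sequence per gene.

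**Figure D1:**
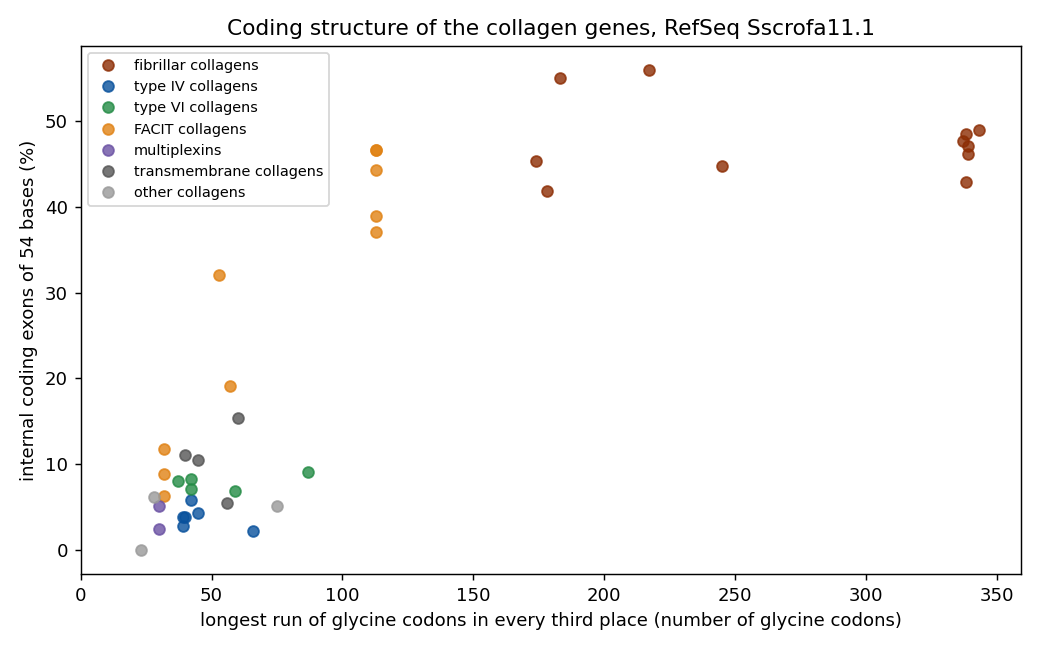
Longest unbroken run of the pattern of 1 glycine and 2 other codons (x axis, number of glycine codons) against the percentage of internal coding exons that are 54 bases long (y axis), 1 point per collagen gene, coloured by class. Genes without an internal coding exon are left out. The 11 fibrillar genes lie at 174 codons or more, and the type IV and type VI genes lie at or below 87 codons and 10%.

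No collagen gene passed the test of H against L. Of the 27 tested, 0 passed the adjusted threshold of 0.1 in limma, and over all 12566 genes tested the share was 0.00796%, a single gene. At an unadjusted p under 0.05 the count was also 0 of 27, against 7.35% of all genes. The groups overlapped for each of the 27, where 0.557% of all genes had groups that did not overlap. In the fit 13 were higher and 14 lower in H, and their median difference was -0.01 on the log2(FPKM + 0.5) scale, beside 0.00 for all genes. The median was -0.08 for 9 fibrillar genes (3 higher, 6 lower), 0.22 for 4 type IV genes (3 higher, 1 lower) and 0.32 for 4 type VI genes (3 higher, 1 lower). All differences below are H minus L on that scale unless a level is named.

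The classes did differ in how much the pigs of a group varied, which is a description across genes with no test. The median SD within groups was 0.861 (log2) for fibrillar genes, 0.359 for type IV and 0.758 for type VI, against 0.388 for all genes tested. Part of this moves with the way transcripts are added up, as described below. With FPKM spread over annotated exons the medians were 0.795, 0.290 and 0.470, against 0.272 for all genes. The sets differ: these class medians keep the 9, 4 and 4 genes tested with summed transcripts. Of those genes, 8, 2 and 4 reached the filter when spread, and the value for all genes covers only the 10521 that did. The 2 type IV genes that did, COL4A1 and COL4A2, had SDs of 0.294 and 0.334. L5 had the highest level of 11 of the 27 genes, and H3 and H4 had the highest level of 4 each. Summed over the 11 fibrillar genes, the level was 96.5 to 404 FPKM in H (median 189) and 108 to 613 FPKM in L (median 181), with L5 at the top, followed by H3 and H4 at 404 and 397. The type IV sum stayed between 66.6 and 89.1 FPKM in H (median 85.5) and between 45.4 and 90.5 FPKM in L (median 72.1). The type VI sum was 62.6 to 212 FPKM in H (median 140) and 61.9 to 186 FPKM in L (median 114). The fibrillar share of all summed collagen FPKM was 66.6% in L5, 55.7% in H4 and 53.7% in H3, and 31.5 to 47.5% in the other 9 pigs. The 2 pigs with the highest tendon marker sums, L5 and H3, were also the 2 with the highest fibrillar sums, and the part of tendon in these sums was not tested.

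**Figure D2:**
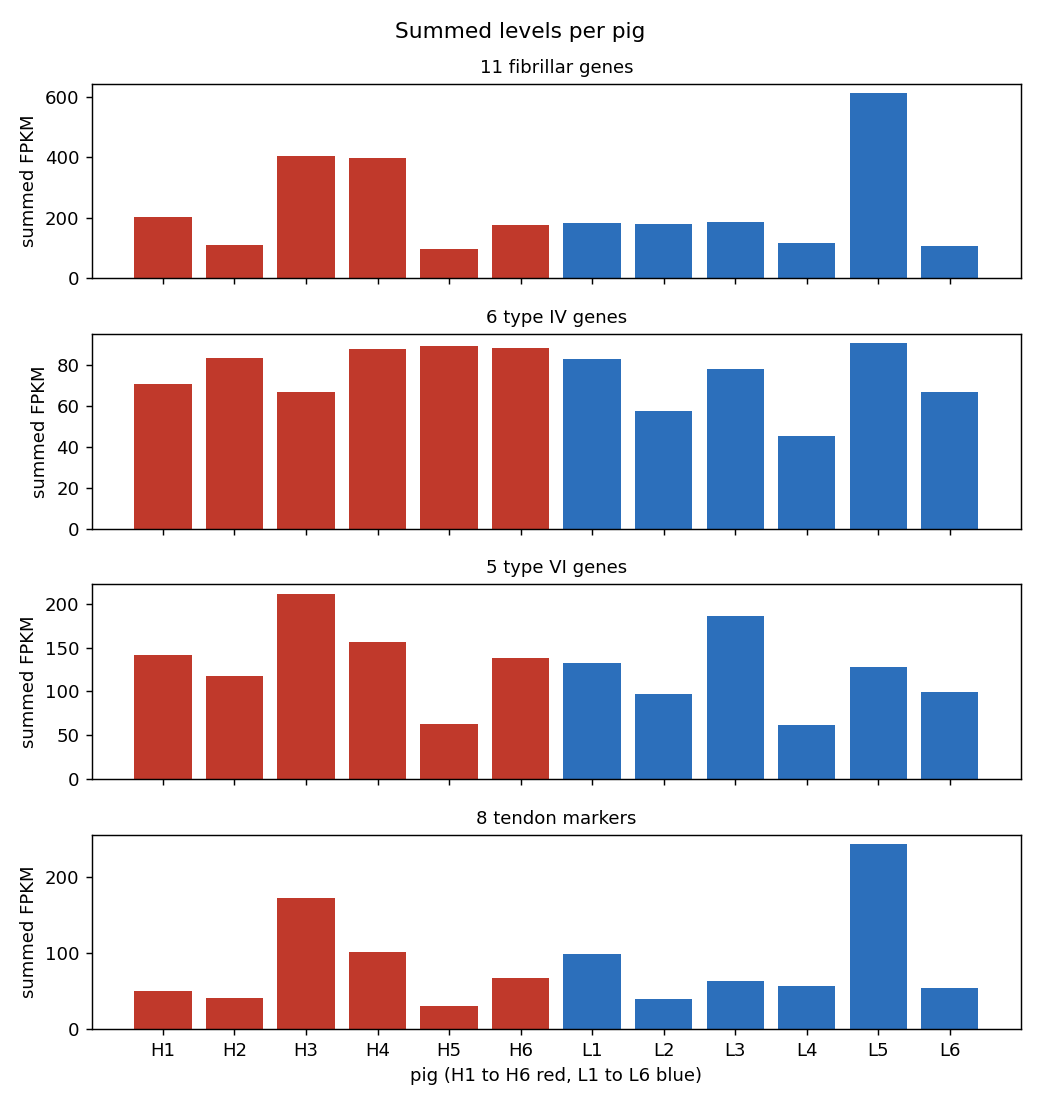
Summed FPKM (y axis, linear from 0, each panel with its own scale) of the 11 fibrillar, 6 type IV and 5 type VI genes and of 8 tendon markers in each of the 12 pigs (x axis, H red, L blue). L5 has the highest fibrillar sum (613 FPKM) and the highest tendon marker sum (244 FPKM), and the type IV sums of the pigs lie between 45.4 and 90.5 FPKM.

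Type I collagen, the main protein of tendon and of muscle sheaths, contains 2 chains of COL1A1 and 1 of COL1A2. COL1A1 (chr12:26379087-26397180) was at 14.2 to 113 FPKM in H, with a median of 29.7, and at 20.2 to 255 FPKM in L, with a median of 28.7. The highest value was in L5, and the next highest L pig was at 33.4 FPKM, so the range of L is made by a single pig. The group means were 49.6 ± 39.97 and 64.5 ± 93.5 FPKM (SD, n = 6 each). The difference was 0.005 with an SE of 0.65 and a 95% interval of -1.41 to 1.42 (limma, adjusted p = 1.00), so that changes of more than a doubling in either direction lie inside it. Without L5 it was 0.55, and without H3 it was -0.30. COL1A2 (chr9:74174484-74210407) followed the same pigs. It was at 13.4 to 94.97 FPKM in H (median 25.9) and 14.8 to 174 FPKM in L (median 26.9), again with L5 highest. Its difference was -0.08 (SE 0.62, 95% interval -1.43 to 1.27).

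COL3A1 (chr15:93556914-93595678), the only chain of type III collagen, which forms fine fibrils with type I, had the highest mean level of all collagens, 88.2 ± 57.2 FPKM in H and 69.2 ± 30.1 FPKM in L (SD, n = 6 each). It was at 31.0 to 172 FPKM in H (median 71.6) and 32.1 to 115 FPKM in L (median 70.2). Here the highest pigs were H4 and H3, followed by L5. The difference was 0.21 (SE 0.44, 95% interval -0.75 to 1.16).

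Type V collagen is built into type I fibrils and sets their width. COL5A1 was at 5.44 to 36.3 FPKM in H (median 22.0) and 9.48 to 33.0 FPKM in L (median 20.9), with a difference of -0.10 (SE 0.45). COL5A2 was at 6.42 to 25.7 FPKM in H (median 12.9) and 7.41 to 12.6 FPKM in L (median 9.23), with a difference of 0.35 (SE 0.27). COL5A3 had group means of 11.3 ± 3.88 and 11.8 ± 5.58 FPKM (SD, n = 6 each) and a difference of -0.01 (SE 0.32). These genes were assembled unevenly, and the values move with the way transcripts are added up, as described below.

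The other fibrillar genes were low. COL27A1 was at 1.58 ± 0.509 FPKM in H and 1.80 ± 0.710 FPKM in L (SD, n = 6 each), with a difference of -0.12 (SE 0.22). COL11A1, which joins type V chains in fibrils, was highest in H3 (4.44 FPKM) and L5 (3.49 FPKM), at most 1.72 FPKM elsewhere and listed at 0 in 2 pigs. COL11A2 was listed in H3 (1.03 FPKM) and L5 (6.53 FPKM) alone, and COL2A1, the cartilage collagen, which did not reach the filter, was listed in the same 2 pigs at 0.522 and 1.11 FPKM. The differences of COL11A1 and COL11A2 were -0.23 (SE 0.59) and -0.37 (SE 0.64). COL24A1 did not reach the filter and was at most 1.57 FPKM. So the 2 pigs with the highest summed tendon markers were also those with the highest values of 3 minor fibrillar genes. The part of tendon in these values was not tested.

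COL4A1 and COL4A2, the chains of the common type IV network, lie head to head on chromosome 11. RefSeq starts COL4A1 at 76997409 on the minus strand, and 133 bases separate it from the start of an annotated COL4A2 transcript on the plus strand. Another annotated COL4A2 transcript starts inside COL4A1. This interval is shown because the genes share it. Capitals mark CCAAT and GGGCGG, the latter also as its reverse complement CCGCCC.
COL4A1-COL4A2 interval (chr11:76997410-76997542, plus strand): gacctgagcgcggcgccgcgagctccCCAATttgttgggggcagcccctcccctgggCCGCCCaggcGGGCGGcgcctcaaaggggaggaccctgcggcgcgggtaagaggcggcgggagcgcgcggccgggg

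On either strand this interval held 1 CCAAT, 2 GGGCGG and 0 TATAAA, with no overlap among the matches. Windows of 133 bases before the start of 19546 protein-coding genes held CCAAT in 21.5%, GGGCGG in 39.1% and TATAAA in 5.26%. The GC content was 78.9%, beside a median of 60.9% in those windows. Such letters occur in many windows and are a description of the sequence only. In 8 libraries a COL4A2 transcript started inside COL4A1, on the opposite strand.

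Both genes were even across the pigs. COL4A1 (chr11:76858332-76997409) was at 38.9 to 55.5 FPKM in H (median 51.8) and 28.0 to 52.2 FPKM in L (median 43.2), and COL4A2 (chr11:76996885-77161617) at 24.7 to 32.4 FPKM in H (median 30.3) and 15.3 to 35.5 FPKM in L (median 26.7). With summed transcripts the SD of COL4A1 within groups, 0.287 on the log2 scale, was the smallest of the 27 collagens. A smaller one was found in 29.1% of all genes tested, while for COL1A1 the figure was 95.7%. The lowest values of COL4A1 and COL4A2 were in L4. The difference was 0.27 for COL4A1 (SE 0.17, 95% interval -0.10 to 0.63, limma adjusted p = 0.753) and 0.20 for COL4A2 (SE 0.19, 95% interval -0.21 to 0.61). L5, highest for type I collagen, was also the highest L pig for COL4A1 (52.2 FPKM) and the highest of the 12 for COL4A2 (35.5 FPKM, next 32.4) and for the type IV sum (90.5 FPKM, next 89.1).

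The remaining type IV chains belong to special basement membranes. COL4A5 was at 1.49 ± 0.567 FPKM in H and 1.86 ± 0.617 FPKM in L (SD, n = 6 each), with a difference of -0.25 (SE 0.22). COL4A6, its neighbour on the X chromosome, was listed in 6 pigs at up to 2.91 FPKM, with a difference of 0.23 (SE 0.53). COL4A3 was listed in 6 pigs at up to 0.953 FPKM and did not reach the filter.

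Type VI collagen is built from COL6A1, COL6A2 and another chain, in muscle mostly COL6A3. COL6A1 (chr13:208295245-208321789) was at 25.1 to 96.3 FPKM in H (median 57.3) and 27.2 to 85.5 FPKM in L (median 41.3), with a difference of 0.31 (SE 0.33, 95% interval -0.40 to 1.03). COL6A2, on an unplaced scaffold, was at 22.9 to 45.9 FPKM in H (median 29.8) and 22.3 to 42.2 FPKM in L (median 32.1), with a difference of -0.02 (SE 0.21, 95% interval -0.47 to 0.43). COL6A3 (chr15:137011549-137103687) was at 13.6 to 72.9 FPKM in H (median 46.9) and 12.4 to 63.0 FPKM in L (median 37.8), with a difference of 0.33 (SE 0.47, 95% interval -0.69 to 1.36). H5 and L4 were low for all 3 chains, and H3 was highest for COL6A1 and COL6A3.

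COL6A6 and COL6A5 can replace COL6A3 in some tissues. COL6A6 was at 0.848 to 3.54 FPKM in H and 0 to 4.495 FPKM in L, with medians of 1.98 and 0.694 FPKM and a difference of 0.81 (SE 0.50, 95% interval -0.27 to 1.89). COL6A5 was listed in H3 alone, at 2.15 FPKM. LOC100517188, which the annotation names as a chain like alpha-4 of type VI and which is not counted as a collagen gene here, was listed in 6 pigs, at 24.6 FPKM in L5, 13.8 FPKM in H3 and at most 8.34 FPKM elsewhere.

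**Figure D3:**
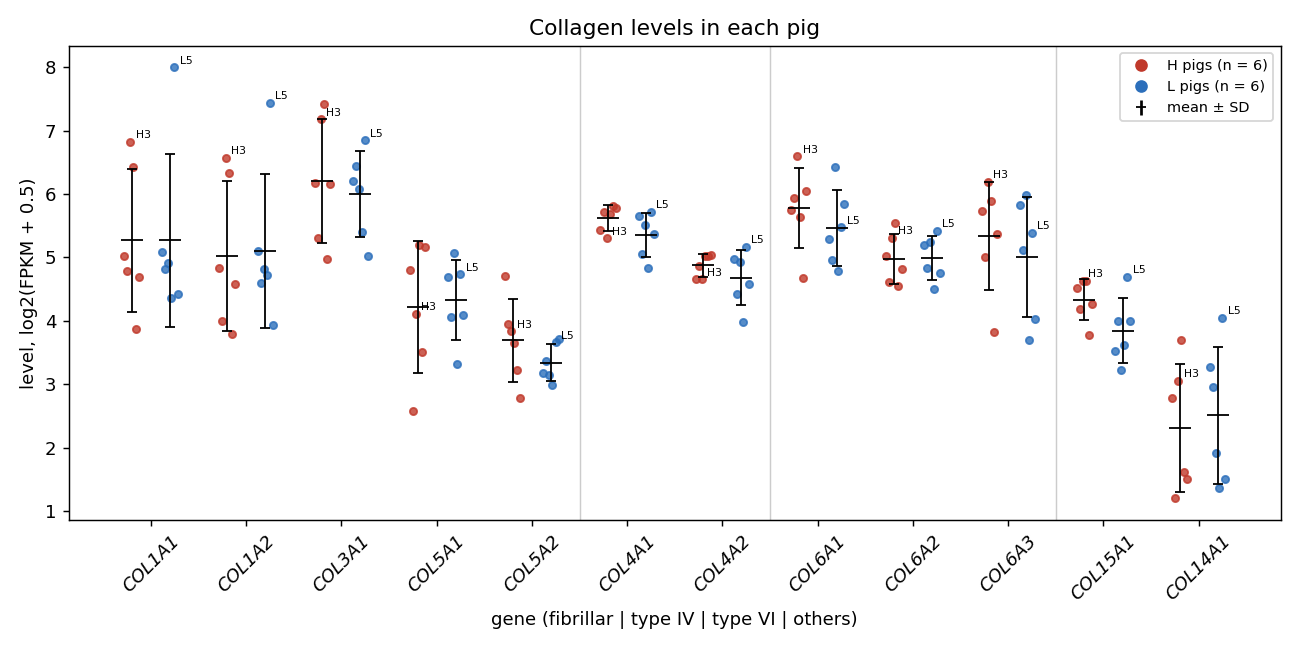
Level of 12 collagen genes in each pig on a log2(FPKM + 0.5) axis (y), with genes on the x axis, H pigs in red, L pigs in blue and black bars for the group mean ± SD (n = 6). L5 stands above the other L pigs for COL1A1 and COL1A2, and the pigs lie closest together for COL4A1 and COL4A2.

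Multiplexins link basement membranes to the matrix, and fragments of their ends act on blood vessels. COL15A1 (chr1:240718128-240829188) came nearest to the threshold. It was at 13.3 to 24.4 FPKM in H (median 20.5) and 8.84 to 25.5 FPKM in L (median 13.6), and the highest pig was L5. The difference was 0.49 (SE 0.24, 95% interval -0.02 to 1.00, limma adjusted p = 0.683). It was 0.66 without L5 and 0.24 (SE 0.30) when FPKM was spread over annotated exons. COL18A1 was at 4.40 ± 2.35 FPKM in H and 5.07 ± 2.75 FPKM in L (SD, n = 6 each), with a difference of -0.15 (SE 0.35).

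Among the FACIT collagens, COL14A1, which binds the small proteoglycan decorin on fibrils, was at 1.80 to 12.4 FPKM in H (median 4.47) and 2.07 to 16.0 FPKM in L (median 5.27), with a difference of -0.20 (SE 0.54). COL12A1, abundant in tendon and fascia, was at 19.2 FPKM in L5 and 8.65 FPKM in H3 and at most 4.14 FPKM in the other pigs, with a difference of -0.10 (SE 0.59). COL16A1 was at 3.93 ± 3.49 FPKM in H and 2.52 ± 2.06 FPKM in L (SD, n = 6 each), with a difference of 0.44 (SE 0.52). COL21A1 was at 2.92 ± 1.35 and 2.56 ± 1.29 FPKM (SD, n = 6 each), with a difference of 0.07 (SE 0.43).

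COL22A1, a collagen of the junction between muscle fibre and tendon, was listed in a single H pig, H3 at 1.83 FPKM, and in 4 L pigs, L5 at 2.90, L1 at 2.64, L4 at 1.69 and L6 at 1.23 FPKM. It had the largest difference of the 27, -1.19 (SE 0.58, limma adjusted p = 0.687), with 5 of the 6 H pigs listed at 0. It was -2.22 with a pseudocount of 0.1 and -0.53 (SE 0.48) with FPKM spread over annotated exons.

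Of the other collagens tested, COL13A1, a transmembrane collagen of the neuromuscular junction, was listed in 8 pigs, at 4.35 FPKM in L5, 3.02 FPKM in H3 and at most 1.71 FPKM elsewhere, with a difference of 0.40 (SE 0.63). COL7A1, which forms anchoring fibrils, was at 1.62 ± 0.823 and 1.58 ± 0.4999 FPKM (SD, n = 6 each), with a difference of -0.03 (SE 0.26). COL8A1, a network collagen of vessels, was at 1.61 ± 0.567 and 1.96 ± 0.911 FPKM (SD, n = 6 each), with a difference of -0.17 (SE 0.27).

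Collagens listed below the filter had highest values of 2.01 FPKM for COL8A2 (L5), 1.197 FPKM for COL20A1 (H4), 1.13 FPKM for COL19A1 (H4), 1.11 FPKM for COL23A1 (H3), 0.879 FPKM for COL28A1 (H4), 0.595 FPKM for COL17A1 (H1) and 0.231 FPKM for COL9A2 (H6). Fragment counts are not given, and an order among these low values was not read.

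**Figure D4:**
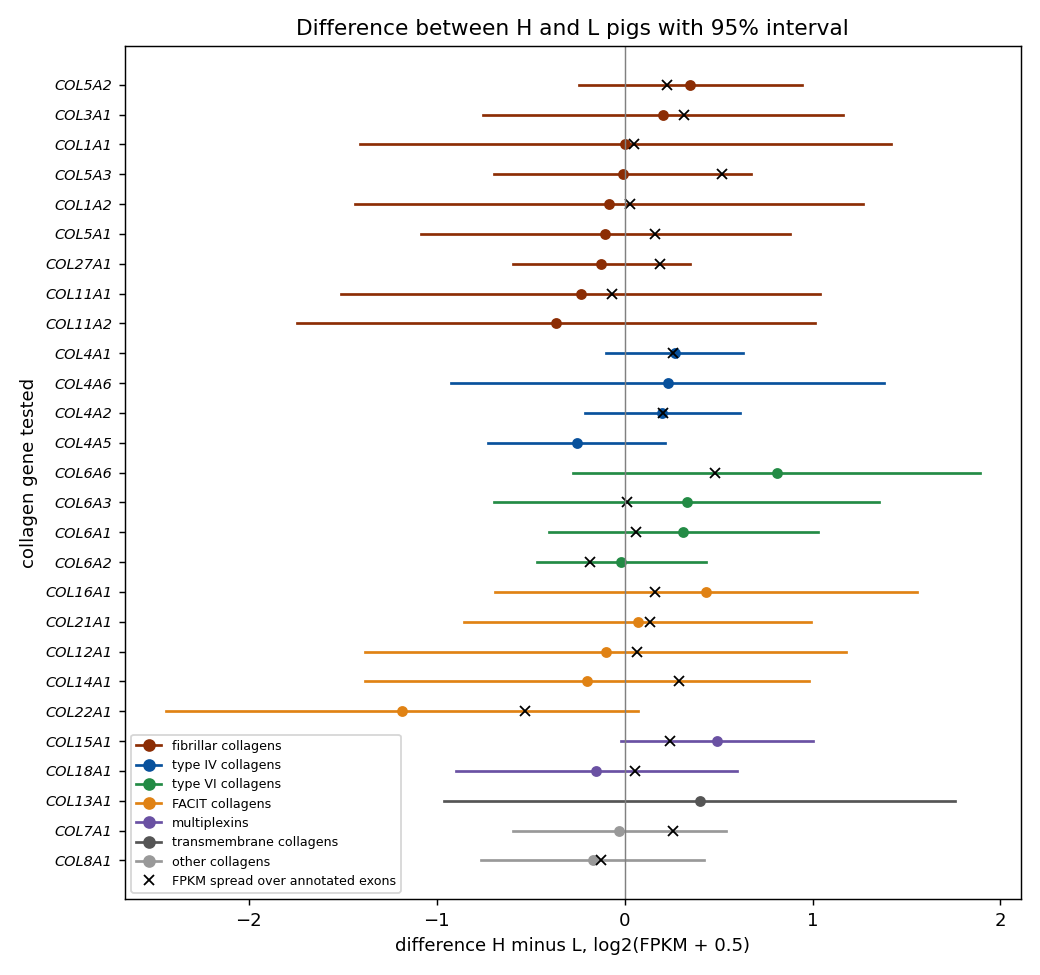
Difference H minus L in log2(FPKM + 0.5) (x axis) of the 27 collagen genes tested (y axis), with the 95% interval of limma, coloured by class. Crosses give the difference when FPKM is spread over annotated exons. Each interval includes 0, and the narrowest are those of COL4A1, COL4A2 and COL6A2.

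How transcripts were assembled moved several of these values. Cufflinks built COL6A1 as 1 transcript in 6 libraries (H4, H5, L1, L2, L4 and L5), with 32 of the 36 annotated introns, as separate pieces in 5 (H2, H3, H6, L3 and L6) and in both ways in H1. Adding the FPKM of pieces that cover different exons counts the gene more than once, since each piece by itself carries about the level of the whole. In H3, for example, the pieces were at 49.8 and 43.8 FPKM as deposited, and their sum entered as 96.3 FPKM after scaling. At least 90% of the annotated introns lay in 1 transcript in 11, 12, 12 and 12 libraries for COL1A1, COL3A1, COL4A1 and COL4A2, but in 2 libraries for COL5A1, 5 for COL5A2, 1 for COL6A1 and 0 for COL6A3. A low count does not by itself show pieces. It was also 0 for COL6A2, which was 1 transcript with 27 of 31 annotated introns in each library. An alternative chosen after these data were seen weights each transcript by the share of the gene's annotated exonic bases that it covers. The sum was 1.01 to 1.07 times the weighted level for COL4A1 and 0.979 to 1.05 times for COL4A2, the genes that changed little, but up to 1.47 times for COL3A1 and up to 2.06 times for COL1A1. Over the libraries that list the gene, this factor had a median of 2.45 for COL6A3, 3.40 for COL7A1, 3.71 for COL27A1 and 4.32 for COL4A5. The median was 5.18 for COL6A6, 7.99 for COL11A1 and 9.28 for COL4A6, but 1.06 for COL8A1 and 1.12 for COL14A1. COL4A5 had a mean of 1.49 FPKM in H with summed transcripts and 0.461 FPKM when weighted. COL1A1 in H2 went from 27.1 to 13.2 FPKM and in L5 from 255 to 199 FPKM. By it COL6A1 was at 24.8 to 47.6 FPKM in H and 24.8 to 40.4 FPKM in L, and the difference was 0.06 (SE 0.19).

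Weighted in this way, 23 collagens reached the filter. COL4A5, COL4A6, COL11A2 and COL13A1 reached it with summed transcripts alone. In that fit 19 were higher and 4 lower in H, with a median of 0.16 beside -0.02 for all 10521 genes, and 0 passed the adjusted threshold. At an unadjusted p under 0.05 stood COL5A3 (0.52, SE 0.21, limma adjusted p = 0.491) and COL7A1 (0.26, SE 0.10, limma adjusted p = 0.480), 2 of 23 beside 9.50% of all genes. COL5A3 was then at 5.31 to 10.4 FPKM in H and 3.51 to 8.43 FPKM in L, and COL7A1 at 0.390 to 0.714 FPKM in H and 0.295 to 0.481 FPKM in L, with overlapping groups for both. Medians were 0.17 for 8 fibrillar genes, 0.23 for 2 type IV genes and 0.04 for 4 type VI genes.

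Chains of the same molecule were then compared across the 12 pigs on the log2(FPKM + 0.5) scale, with permutation tests of 8 gene pairs, two-sided. COL1A1 and COL1A2 varied together, with r = 0.97 (permutation p = 2e-05, adjusted 0.00012) and rho = 0.92 (p = 0.0001, adjusted 0.0008), and r was 0.91 without L5 and H3, the pigs farthest from the median. COL4A1 and COL4A2 did so as well, with r = 0.95 (permutation p = 3e-05, adjusted 0.00012) and rho = 0.85 (p = 0.00078, adjusted 0.00208), and r = 0.87 without L4 and L2. For COL1A1 and COL3A1, r was 0.81 (permutation p = 0.00078, adjusted 0.00208), rho 0.87 (p = 0.00035, adjusted 0.0014) and r without L5 and H3 0.90. Between classes, COL1A1 and COL4A1 had r = 0.17 (permutation p = 0.601, adjusted 0.687) and rho = -0.06 (p = 0.851, adjusted 0.851), and r = 0.18 without L5 and H3. Within groups this r was -0.67 in H and 0.62 in L.

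The pairs with split assemblies depended on the way of adding. COL5A1 and COL5A2 had r = -0.07 (permutation p = 0.831, adjusted 0.831) and rho = -0.16 (p = 0.618, adjusted 0.706) with summed transcripts, and r = 0.98 (permutation p = 1e-05, the smallest that 100000 permutations can give, adjusted 4e-05) and rho = 0.99 (p = 1e-05, adjusted 5.33e-05) with FPKM spread over exons. Leaving out the pigs farthest from the median gave r = -0.05 and 0.96. COL6A1 and COL6A2 went from r = 0.45 (permutation p = 0.141, adjusted 0.226) and rho = 0.36 (p = 0.255, adjusted 0.406) to r = 0.92 (permutation p = 6e-05, adjusted 9.6e-05) and rho = 0.91 (p = 0.00013, adjusted 0.000208), with 0.07 and 0.90 without the farthest pigs. COL6A1 and COL6A3 went from r = 0.65 (permutation p = 0.0235, adjusted 0.0471) and rho = 0.59 (p = 0.0483, adjusted 0.0965) to r = 0.94 (permutation p = 3e-05, adjusted 8e-05) and rho = 0.94 (p = 2e-05, adjusted 5.33e-05). With summed transcripts the relation of COL6A1 and COL6A3 rests on H5 and L4, since r was 0.29 without them, and it was 0.97 without the farthest pigs when spread. COL1A1 and COL6A1 went from r = 0.33 (permutation p = 0.296, adjusted 0.395) and rho = 0.32 (p = 0.305, adjusted 0.406) to r = 0.86 (permutation p = 0.00024, adjusted 0.000274) and rho = 0.91 (p = 0.00011, adjusted 0.000208), with 0.34 and 0.92 without L5 and H3. The pair of COL1A1 and COL4A1 stayed at r = 0.17 (permutation p = 0.600, adjusted 0.600) and rho = 0.01 (p = 0.973, adjusted 0.973), with 0.25 without L5 and H3.

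**Figure D5:**
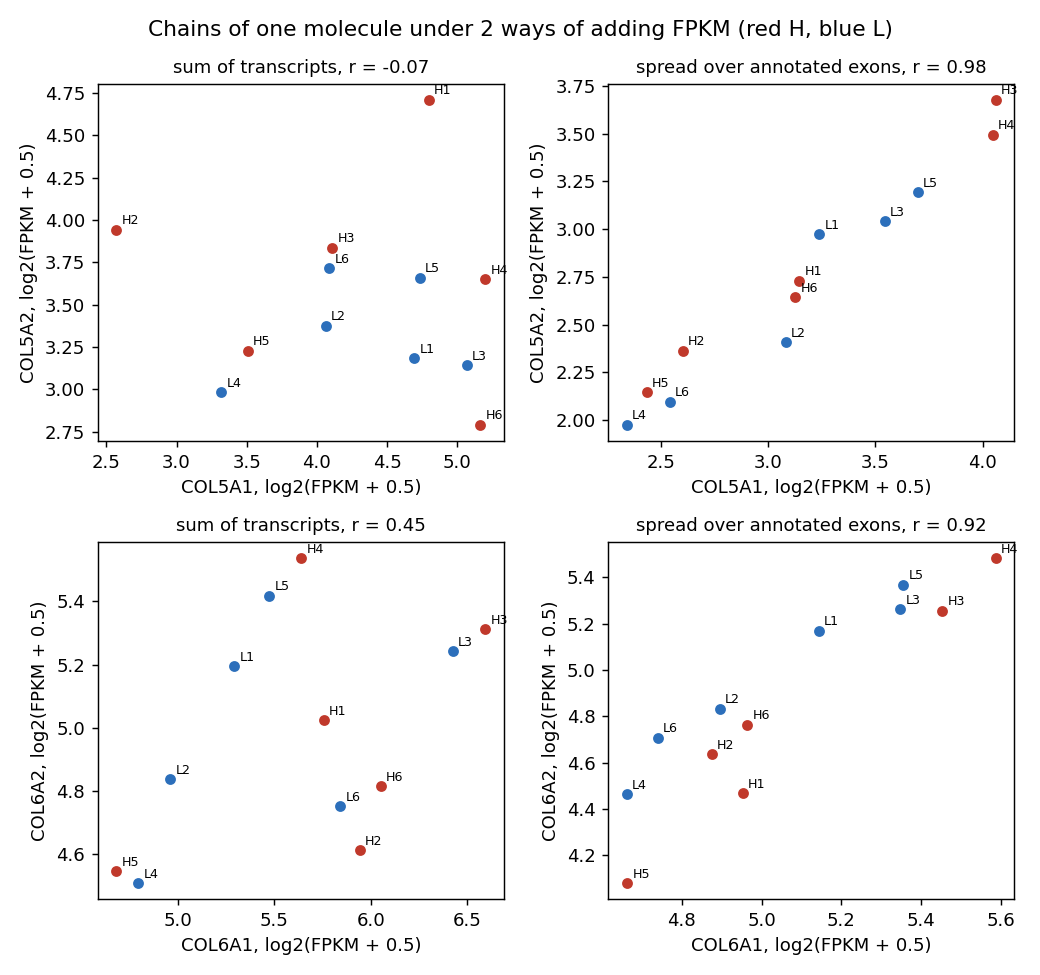
Level of COL5A2 against COL5A1 (top) and of COL6A2 against COL6A1 (bottom) in each of the 12 pigs, log2(FPKM + 0.5) on both axes, H red and L blue. Left panels add the FPKM of all transcripts of a gene (r = -0.07 and 0.45), and right panels spread FPKM over annotated exons (r = 0.98 and 0.92).

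The balance of chains and of classes within a pig was tested with log2 ratios, by exact permutation tests over all arrangements of the pigs. Of 8 ratios, 0 had p under 0.05, and the smallest exact p was 0.290 (adjusted 0.957), for COL4A1 over COL4A2, at 0.74 ± 0.08 in H and 0.68 ± 0.12 in L (log2, SD, n = 6 each). Type I over type IV (COL1A1 over COL4A1) was at -0.35 ± 1.27 in H and -0.09 ± 1.18 in L, with exact p = 0.723. Type I over type VI (COL1A1 over COL6A1) was at -0.50 ± 0.84 and -0.20 ± 1.46, with exact p = 0.712, and type IV over type VI (COL4A1 over COL6A1) at -0.15 ± 0.78 and -0.11 ± 0.48, with exact p = 0.918. COL3A1 over COL1A1, the ratio of type III to type I, was at 0.93 ± 0.42 and 0.73 ± 0.98 (exact p = 0.777), COL1A1 over COL1A2 at 0.25 ± 0.27 and 0.16 ± 0.34 (exact p = 0.645), and COL6A3 over COL6A1 at -0.44 ± 0.48 and -0.46 ± 0.86 (exact p = 0.957). COL6A1 over COL6A2 was at 0.80 ± 0.57 in H and 0.47 ± 0.52 in L (exact p = 0.292). With FPKM spread over exons it was at 0.30 ± 0.19 and 0.06 ± 0.08. That difference of 0.24 had exact p = 0.00649, and 0.0519 after adjustment over the 8 ratios. The highest of these values were 0.58 in H5 and 0.48 in H1, and the next was 0.24 in H2. In H5 and H1 spreading lowered COL6A2 from 22.9 to 16.4 FPKM and from 32.0 to 21.6 FPKM. COL6A2 was 1 transcript in each of the 12 libraries, so no pieces were counted more than once. The part of this lowering in the difference was not tested.

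The genes most like a main collagen of each class over the 12 pigs were read as a description, among genes of at least 5 FPKM that are no collagens. With summed transcripts, those nearest COL1A1 were FMOD, a proteoglycan of tendon fibrils (r = 0.96), FKBP9, MARCKS, OGN and THBS4 (r = 0.89 each), of which FMOD and THBS4 are among the 8 tendon markers. FMOD was at 54.9 FPKM in L5 and 21.5 FPKM in H3 and at most 8.14 FPKM elsewhere. Those nearest COL4A1 were LAP3 (r = 0.80), SFT2D1, TRIP10, CCDC58 and RCC1L (r = 0.79 each), and those nearest COL6A1 were BTF3 (r = 0.85), B2M (r = 0.81), SLC25A42, COPB1 (r = 0.80 each) and RND3 (r = 0.79). Spread over exons, the nearest to COL1A1 were MMP2 and FMOD (r = 0.94 each), AEBP1 (r = 0.93), DDIT4L (r = 0.88) and MARCKS (r = 0.87), and the nearest to COL6A1 were THY1, a fibroblast surface protein (r = 0.90), and FN1, TGFBI, FSTL1 and TLN1 (r = 0.89 each). For COL4A1 they were CRIP2 (r = 0.88), HMGN1 (r = 0.83) and MSN, ZNF251 and EIF4H (r = 0.79 each).

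The machinery that makes and ties collagen was measured with it. Of the lists below, 0 genes passed the adjusted threshold, and at an unadjusted p under 0.05 the background was 3.96% of all genes higher and 3.39% lower in H. Of 18 genes for the hydroxylation and folding of collagen chains, 5 were higher and 13 lower in H and 0 had p under 0.05 (median -0.05). P4HB, a subunit of prolyl hydroxylase, was at 32.3 ± 6.84 FPKM in H and 44.0 ± 12.9 FPKM in L (SD, n = 6 each), a difference of -0.41 (SE 0.22), and SERPINH1, the collagen chaperone, was at 22.7 ± 6.66 and 22.8 ± 5.58 FPKM. Of 8 secretion genes, 3 were higher and 5 lower (median -0.06), and those of the highest level, MIA3 and MIA2, which load collagen into transport vesicles, differed by -0.20 (SE 0.13) and 0.18 (SE 0.15). Of 5 propeptide processing genes tested out of 10, 4 were higher and 1 lower (median 0.24). PCOLCE, the enhancer of the C-proteinase, was listed in 8 pigs at up to 18.2 FPKM, and BMP1, that proteinase, was at 5.11 ± 1.39 and 4.23 ± 1.01 FPKM (SD, n = 6 each), a difference of 0.24 (SE 0.19).

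Cross-linking enzymes numbered 6, with 3 higher and 3 lower in H (median 0.05). LOXL4, a lysyl oxidase, had p under 0.05. It was at 0.508 to 1.72 FPKM in H and 0.829 to 4.16 FPKM in L, a difference of -0.84 (SE 0.35, limma adjusted p = 0.655), with overlapping groups, and with FPKM spread over exons the difference was -0.81, above an unadjusted p of 0.05. PXDN, which cross-links type IV collagen, and LOXL2 had the highest levels of the list, 5.34 ± 1.11 and 4.91 ± 1.80 FPKM, and 3.40 ± 1.19 and 3.37 ± 1.85 FPKM (SD, n = 6 each). Of 8 fibril partners, 6 were higher and 2 lower (median 0.23), with 0 at p under 0.05. SPARC, a collagen-binding matrix protein, was at 106 ± 39.4 and 105 ± 45.03 FPKM, and DCN, decorin, at 104 ± 43.7 and 86.7 ± 25.7 FPKM (SD, n = 6 each).

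Of 10 partners of type IV collagen in the basement membrane, 9 were higher in H (median 0.27), with 2 at an unadjusted p under 0.05. With FPKM spread over exons, 9 of 10 were higher (median 0.35). At an unadjusted p under 0.05 stood 5 (LAMA5, LAMB1, NID1, NID2 and AGRN), all higher, beside 498 higher of all 10521 genes in that fit. Of the 10, 0 passed the adjusted threshold (lowest limma adjusted p = 0.388). NID2, a nidogen that links laminin to type IV collagen, was at 3.15 to 6.46 FPKM in H and 2.30 to 5.25 FPKM in L, a difference of 0.48 (SE 0.21, limma adjusted p = 0.676). AGRN, a heparan sulfate proteoglycan of basement membranes, was at 1.74 to 4.44 FPKM in H and 0.915 to 2.80 FPKM in L, a difference of 0.54 (SE 0.24, limma adjusted p = 0.676). Both overlapped between groups. LAMA2, the laminin chain of muscle fibres, and HSPG2, perlecan, had the highest levels, at 61.8 ± 28.8 and 48.0 ± 17.7 FPKM, and 31.1 ± 6.91 and 24.1 ± 5.89 FPKM (SD, n = 6 each). The difference of LAMA2 was 0.31 (SE 0.33), and -0.0079 when spread over exons. Endothelial markers were higher in H for 9 of 9 tested (median 0.31, summed level 80.9 to 160 FPKM in H and 51.1 to 132 FPKM in L, with CLDN5 at 0), and smooth muscle and pericyte markers for 9 of 9 (median 0.39, summed level 103 to 232 FPKM in H and 80.3 to 159 FPKM in L). Of those, 2 endothelial and 4 pericyte markers had an unadjusted p under 0.05 and 0 passed the adjusted threshold. With FPKM spread over exons, 8 of 9 endothelial markers and 9 of 9 pericyte markers were higher (median 0.26 each). Of each list 2 then had an unadjusted p under 0.05 and 0 passed the adjusted threshold. Whether vessels have a part in the type IV values was not tested.

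Of 13 genes for degradation and its inhibitors tested out of 18, 7 were higher and 6 lower (median 0.00). CTSK, the lysosomal collagenase cathepsin K, was listed in 1 H pig, H2 at 4.64 FPKM, and in 5 L pigs at 5.41 (L1), 5.88 (L3), 3.95 (L4), 9.06 (L5) and 5.49 (L6) FPKM. It differed by -2.48 (SE 0.76, limma adjusted p = 0.557), and by -1.53 with FPKM spread over exons. TIMP4, an inhibitor of matrix metalloproteinases, was at 0.873 to 1.60 FPKM in H and 0.569 to 0.917 FPKM in L, a difference of 0.51 (SE 0.15, limma adjusted p = 0.557). Only H3 lay within the L range. CTSB and TIMP3 had the highest levels of the list, at 52.9 ± 9.22 and 60.6 ± 15.3 FPKM, and 31.2 ± 7.18 and 26.1 ± 3.54 FPKM (SD, n = 6 each). MMP1, MMP3, MMP8, MMP9 and MMP13 were listed at 0 in the 12 libraries.

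Of 12 receptor genes tested, 6 were higher and 6 lower (median 0.05). CSPG4, the NG2 proteoglycan, which binds type VI collagen, differed by 0.41 (SE 0.19, limma adjusted p = 0.676) and ANTXR2, which takes up collagen VI, by 0.49 (SE 0.22, limma adjusted p = 0.676). CSPG4 was at 0.854 to 1.76 FPKM in H and 0.495 to 1.17 FPKM in L. ANTXR2 was at 3.59 to 10.5 FPKM in H and 3.41 to 3.99 FPKM in L, and with FPKM spread over exons its difference was 0.049 and that of CSPG4 0.18, both above an unadjusted p of 0.05. CSPG4 is also among the pericyte markers above. ITGB1, the shared integrin chain, and ADGRG1, a receptor that binds type III collagen, had the highest levels, with ITGB1 at 34.4 ± 3.71 FPKM in H and 46.2 ± 32.0 FPKM in L (SD, n = 6 each), where L3 was at 111 FPKM. ADGRG1 was at 7.54 ± 3.70 and 6.87 ± 2.72 FPKM (SD, n = 6 each).

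Signals that act on collagen synthesis split evenly, 8 higher and 8 lower of 16 (median -0.02). CTGF and CYR61, secreted matrix proteins that respond to stretch, were lower in H. CTGF was at 2.37 to 14.7 FPKM in H and 9.67 to 18.2 FPKM in L, a difference of -0.98 (SE 0.42, limma adjusted p = 0.661), and CYR61 at 5.56 to 20.1 FPKM in H and 14.0 to 51.3 FPKM in L, a difference of -1.30 (SE 0.37, limma adjusted p = 0.557). PDGFA, a growth factor of connective tissue cells, and PDGFRB, a receptor of this factor family, were higher, by 0.68 (SE 0.20, limma adjusted p = 0.557) and 0.45 (SE 0.20, limma adjusted p = 0.676). PDGFA was at 2.74 to 6.53 FPKM in H and 2.17 to 3.81 FPKM in L, and PDGFRB at 6.76 to 11.9 and 5.09 to 10.8 FPKM. With FPKM spread over exons the differences were 0.32 and 0.21, both above an unadjusted p of 0.05, and PDGFRB is also among the pericyte markers above. TGFB1, the main fibrogenic factor, was at 3.44 ± 0.501 and 3.27 ± 0.462 FPKM (SD, n = 6 each), a difference of 0.06 (SE 0.12).

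Other cell types that make or surround collagen were read from their markers. Fibroblast markers were higher in H for 8 of 10 (median 0.26, summed level 134 to 361 FPKM in H and 138 to 248 FPKM in L, highest in H4 and L5), with 0 at p under 0.05. Adipocyte markers were higher for 8 of 8 tested (median 0.76), 1 of them at an unadjusted p under 0.05. Their summed level was 127 to 424 FPKM in H and 129 to 325 FPKM in L, with ADRB3 at 0. GPD1 alone gave 299 of the 424 FPKM in H4 and 235 of the 325 FPKM in L6. ADIPOQ and PLIN1 had means of 8.63 and 3.85 FPKM over all pigs. With FPKM spread over exons 6 of 7 adipocyte markers were higher, and GPD1 was at -0.28. Of 6 tendon markers tested, 1 was higher and 5 lower (median -0.25). Macrophage markers (4 of 6 higher, summed level 11.12 to 19.9 FPKM in H and 6.86 to 22.5 FPKM in L, with CD68 at 0), Schwann cell markers (5 of 6 higher, 14.0 to 31.1 and 16.0 to 27.7 FPKM) and skeletal muscle genes (4 of 9 higher, median -0.30) completed these lists. Of the muscle genes, DES, the intermediate filament of muscle fibres, had an unadjusted p under 0.05, with a difference of -0.46 (SE 0.21, limma adjusted p = 0.676). With FPKM spread over exons it was -0.66 (limma adjusted p = 0.357). CKM, at 0 in H4 and L2, differed by -0.45 (SE 2.78), and MYH7, at 0 in H6 and L4, by 0.12 (SE 2.43). The signs of CKM and MYH7 thus rest on values of 0 that can be missing assemblies. The part of these cell types in the collagen values was not tested.

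Without H3 and L5, a choice made after their tendon markers were seen, 26 collagens were tested, 17 higher and 9 lower in H, with a median of 0.14, and 0 passed the adjusted threshold. At an unadjusted p under 0.05 stood COL15A1 (0.60, SE 0.21) and COL4A1 (0.40, SE 0.17), higher, and COL22A1 (-1.31, SE 0.51), lower, with adjusted p of 0.543, 0.582 and 0.567 (limma), 3 of 26 beside 8.30% of all 12545 genes. The fibrillar median was then 0.10, that of type IV 0.37 and that of type VI 0.19.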

How the data were processed

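The 12 libraries, 1 from the longissimus dorsi of each pig, were sequenced from both ends. After trimming with Trim Galore, the authors aligned the reads with TopHat 2.1.0 (Ensembl genes, Sscrofa11.1) and ran Cufflinks 2.2.1 on every library separately. The deposited values are FPKM of assembled transcripts, written as text in an attribute field beside other values such as coverage. They carry no gene names and were not scaled across libraries. Genes that a file does not list were set to 0. Fragment counts are not given, so no counting interval was made, and coverage served for depth only.

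Each transcript went to the RefSeq gene on its strand that shared most exonic bases (Python 3.11.15), and an unstranded one to a gene covering at least 50% of it. As a check of the build, 98.5% of the introns had standard splice sites on the RefSeq sequence. Scaffolds were named by at least 5 shared introns (24 matched, and that of COL6A2 shares 179). FPKM were summed per gene and scaled by median ratios (factors 0.892 to 1.13). Genes with a group mean of at least 0.5 FPKM were fitted by limma 3.58.1 (R 4.3.3) on log2(FPKM + 0.5) (variance trend, two-sided tests). P-values were adjusted after Benjamini and Hochberg over all genes fitted, and 0.1 was the threshold. The procedure was tested on simulated data, drawn as independent normal values for each gene. These held no zeros from missing assemblies, no split transcripts and no outlying pigs, so they do not show how the fit handles such values. A fold change on that scale understates the change of low genes, and the spread between pigs includes any batch effect. Ratios used exact permutation tests (smallest possible p 0.0022) and correlations 100000 permutations (SciPy 1.17.1).

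Collagens past the filter are named with level and difference, those under it with their highest value, listed pathway genes if their unadjusted p was under 0.05 or their mean was among the 2 highest of the list, and the 5 genes most like COL1A1, COL4A1 and COL6A1. CKM, TGFB1, LOC100517188, the MMP genes at 0 and the single markers named fall outside this rule, picked with their values known. The members, the lists and the tests were chosen with earlier results of these data known. The alternatives were pseudocounts of 0.1 and 1, no filter or a minimum of 1 FPKM, FPKM as deposited, quantile normalization, transcripts sharing an annotated intron, limma without trend or with array weights, the individual number as a block, each pig left out, and H4 and L3 left out. After the data were seen, 2 were added: FPKM spread over annotated exons and the fit without H3 and L5.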

Additional observations from a re-analysis of the deposited data

Results flagged for a closer look

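In 70 groups of 6 pigs (54 of genes and 16 of ratios), 14 had 1 pig farther from the others than Dixon's test allows at the 95% level. The rate of 1 in 20, or 3.5 of 70, holds for independent, normally distributed values. FPKM hold zeros and the groups share genes and pigs, so no excess over chance can be read from the 14. A pig is flagged at any level where all others are at 0, as for COL11A2 and COL22A1. L5 was the flagged pig in 8 cases. Among the L pigs it stood apart for COL1A1 (255 FPKM, nearest other pig 33.4), COL1A2 (174, nearest 34.0), COL11A1 (3.49, nearest 1.33), COL11A2 (6.53, all others at 0) and COL12A1 (19.2, nearest 2.45). In the log2 ratios L5 was lowest for COL3A1 over COL1A1 (-1.15, nearest 0.60) and highest for COL1A1 over COL4A1 (2.28, nearest -0.23) and COL1A1 over COL6A1 (2.52, nearest -0.14). In H, H3 stood apart for COL11A2 (1.03 FPKM, all others at 0) and COL22A1 (1.83 FPKM, all others at 0). H3 and L5 have the highest summed tendon markers, 173 and 244 FPKM, and the part of tendon in these values was not tested.

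The other pigs that stood apart were L2 for COL6A6 (4.495 FPKM, nearest 1.68), H4 for COL18A1 (9.01 FPKM, nearest 4.09), H5 as the lowest for COL21A1 (0.268 FPKM, nearest 2.94) and H2 for the log2 ratio of COL1A1 over COL1A2 (0.79, nearest 0.25). The last held only with summed transcripts: with FPKM spread over exons the ratio of H2 was -0.24, the lowest of the H pigs.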

How the results depend on the processing

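Under each alternative 0 collagens passed the adjusted threshold. Of the 27 tested, 13 kept their sign under every alternative (COL4A1, COL4A2, COL4A5, COL5A2, COL6A1, COL6A3, COL6A6, COL8A1, COL11A2, COL13A1, COL15A1, COL16A1 and COL22A1, where tested) and 14 changed it under at least 1. In log2(FPKM + 0.5) the changed values were -0.0068 for COL1A1 with FPKM as deposited. With quantile normalization they were COL1A2 0.0057, COL5A3 0.056 and COL6A2 0.069, and with array weights COL5A1 0.17, COL5A3 0.13 and COL6A2 0.043. Without H4 and L3 they were COL1A1 -0.30, COL3A1 -0.026, COL4A6 -0.28, COL5A3 0.20 and COL7A1 0.19. Without H3 and L5 they were COL1A2 0.073, COL5A1 0.0014, COL5A3 0.13 and COL12A1 0.10. With FPKM spread over exons they were COL1A2 0.028, COL5A1 0.16, COL5A3 0.52, COL7A1 0.26, COL12A1 0.068, COL14A1 0.29, COL18A1 0.058 and COL27A1 0.19. With 1 pig left out the values that crossed 0 ran over -0.30 to 0.55 (COL1A1), -0.39 to 0.38 (COL1A2), -0.040 to 0.45 (COL3A1), -0.31 to 0.23 (COL5A1), -0.18 to 0.16 (COL5A3), -0.13 to 0.068 (COL6A2), -0.18 to 0.11 (COL7A1), -0.65 to 0.069 (COL11A1), -0.41 to 0.41 (COL12A1), -0.48 to 0.11 (COL14A1), -0.37 to 0.043 (COL18A1), -0.097 to 0.46 (COL21A1) and -0.23 to 0.0076 (COL27A1).

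The number of collagens higher in H at an unadjusted p under 0.05, 0 in the main analysis, was 2 without a filter (COL17A1 and COL20A1), 1 with quantile normalization (COL15A1), 2 without H3 and L5, 2 with FPKM spread over exons and 0 to 2 with 1 pig left out. The number lower was 1 with transcripts sharing an annotated intron (COL4A5), 1 with array weights, 1 without H4 and L3 and 1 without H3 and L5 (COL22A1 each), and 0 to 1 with 1 pig left out. Over all genes, 1 passed the adjusted threshold in the main analysis, 0 with a minimum of 1 FPKM, 2 with array weights, 5 without H3 and L5, and 1 to 3 with 1 pig left out. With the individual number as a replicate block the count over all genes was 0. Deviations of pigs with the same number correlated by -0.075 to 0.062, so the samples share only a number.

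In the ratios (H minus L, log2), COL6A3 over COL6A1 was -0.12 without H4 and L3 and -0.043 with FPKM spread over exons. Without H3 and L5, COL3A1 over COL1A1 was -0.059, COL1A1 over COL6A1 0.088 and COL4A1 over COL6A1 0.25. The last was 0.20 with FPKM spread over exons. So spread, COL6A1 over COL6A2 was 0.24 (0.33 with summed transcripts). It was then the only 1 of the 8 ratios with an exact p under 0.05 (0.00649, adjusted 0.0519). Its highest values were in H5 and H1, the pigs where spreading lowered COL6A2 as given above. The correlation of COL6A1 with COL6A3 missed p under 0.05 without H4 and L3 (r = 0.62) and without H3 and L5 (r = 0.59), and with FPKM spread over exons r was 0.98 for COL5A1 with COL5A2, 0.92 for COL6A1 with COL6A2 and 0.86 for COL1A1 with COL6A1. With 1 pig left out, the medians ran from -0.23 to 0.26 for fibrillar, 0.076 to 0.32 for type IV and 0.12 to 0.58 for type VI genes. The ratios ran from -0.17 to 0.38 (COL3A1 over COL1A1), -0.021 to 0.17 (COL1A1 over COL1A2), -0.25 to 0.22 (COL6A3 over COL6A1), -0.64 to 0.21 (COL1A1 over COL4A1), -0.57 to 0.24 (COL1A1 over COL6A1) and -0.30 to 0.18 (COL4A1 over COL6A1), and the correlations from -0.31 to 0.14 (COL5A1 with COL5A2) and 0.54 to 0.77 (COL6A1 with COL6A3). The cause was not tested, except that spreading over exons by construction counts a gene assembled in pieces only as often as its exons are covered. With 6 pigs a group, the intervals for type I collagen include more than a doubling in either direction.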
